A study of Mus musculus with 24 samples.

Results

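The Magea genes are X-linked cancer-testis genes of the mouse, and the members described here are Magea1, Magea2, Magea3, Magea5, Magea6 and Magea8. They were chosen by their gene name on the array, and the family was selected on its low signal in the TO line of the same samples, so every value that sets TO against another line, or TO in one medium against TO in the other, is given as a description with no test. Of the 6 members, 5 had a probe of their own name, out of 27597 gene names on the array. All 5 were well above background in all 24 samples, the TO samples included, and all 5 were among the 16241 genes tested. For Magea6 this counts TO-p replicate 3 and OT-d replicate 1, whose spot carried an outlier mark and whose values were left out. No probe carried the name Magea2, so that member was followed only through probes of its relatives.

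The RNA came from N1E-115 cells, which derive from a mouse neuroblastoma, and was hybridised to 12 two-colour Agilent arrays that lay on 3 slides and held 2 samples each. In the TO line, cells were transfected with oleosin fused to the N-terminal form of transcobalamin, the carrier of cobalamin (vitamin B12), and per the labels this product binds cobalamin with high affinity. The OT line was transfected with the C-terminal fusion, for which no cobalamin binding was detected, and WT is the line without transfection. Each was grown in differentiation medium (d), with 2.5% serum and 1.25% DMSO, and in proliferation medium (p), with 10% serum, which gave the 6 groups TO-d, OT-d, WT-d, TO-p, OT-p and WT-p of 4 samples each. All groups share the N1E-115 background. The labels do not say which promoter drove the fusions or how many clones each transfected line stands for, so a property of the fusion and a property of the clone cannot be told apart.

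In mammals, MAGE-A genes are active in the germ cells of the testis, are held silent in most other tissues in part by methylation of their promoters, and are switched on again in many tumours. MAGE proteins share a conserved homology domain through which they bind RING-type ubiquitin ligases. In human cells, MAGEA3 and MAGEA6 bind TRIM28 and steer it towards substrates such as the energy sensor AMPK, and in mice the loss of several Magea genes made male germ cells more sensitive to starvation and to DNA damage.

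The 5 probes lay within 165 kb on the minus strand of chromosome X in the mm8 coordinates of the scanner files, in the order Magea6 (chrX:150264807-150264866), Magea3 (chrX:150289391-150289450), Magea8 (chrX:150326902-150326961), Magea5 (chrX:150394622-150394681) and Magea1 (chrX:150429595-150429654). The genes are near-identical relatives, and the file's own transcript lists show which probes cannot tell them apart. The probes of Magea3 and Magea6 list only their own transcript among the members. The Magea8 probe also lists Magea5 and Magea2, the Magea1 probe lists Magea5, Magea8 and Magea2, and the Magea5 probe lists Magea1, Magea6 and Magea2. Signals of Magea8, Magea1 and Magea5 can therefore be sums over relatives, and the 5 probes are not 5 independent measurements. Each probe had 1 spot on an array.

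Because the 5 probes moved together across the samples, the bases just upstream of the annotated starts are shown for the pairs of members whose sequences there are most alike. The sequences are those of RefSeq on GRCm38.p6, minus strand, read 5′ to 3′ over the 250 bases before the start, and all 6 members had an entry. Capitals mark GGAAG, the core of sites bound by ETS factors, or its reverse complement. The windows are chrX:154995851-154996100 for Magea8, chrX:155033293-155033542 for Magea2, chrX:155089791-155090040 for Magea1 and chrX:154949570-154949819 for Magea3.
Magea8: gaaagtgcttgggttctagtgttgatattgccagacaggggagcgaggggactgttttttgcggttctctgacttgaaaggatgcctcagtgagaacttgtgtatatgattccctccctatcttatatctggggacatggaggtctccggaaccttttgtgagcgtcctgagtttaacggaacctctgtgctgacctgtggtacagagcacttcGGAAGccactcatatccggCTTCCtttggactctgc
Magea2: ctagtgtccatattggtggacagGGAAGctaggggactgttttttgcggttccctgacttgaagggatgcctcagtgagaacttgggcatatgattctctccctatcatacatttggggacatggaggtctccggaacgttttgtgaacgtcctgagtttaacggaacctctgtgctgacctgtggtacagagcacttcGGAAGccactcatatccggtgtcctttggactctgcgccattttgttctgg
Magea1: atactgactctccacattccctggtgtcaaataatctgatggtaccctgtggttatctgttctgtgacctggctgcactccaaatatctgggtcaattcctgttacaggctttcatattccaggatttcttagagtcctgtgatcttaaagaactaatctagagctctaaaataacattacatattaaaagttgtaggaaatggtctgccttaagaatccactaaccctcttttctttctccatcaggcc
Magea3: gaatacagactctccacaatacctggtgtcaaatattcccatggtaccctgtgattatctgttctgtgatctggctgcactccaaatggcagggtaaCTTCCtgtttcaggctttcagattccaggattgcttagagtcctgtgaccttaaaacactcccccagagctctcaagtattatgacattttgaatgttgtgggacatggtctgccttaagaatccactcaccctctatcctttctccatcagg

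The windows of Magea2 and Magea8 were identical at 216 bases after alignment, which is 86.4% of the window, and those of Magea1 and Magea3 at 212 bases, or 84.8%. The Magea5 window was identical at 57.6% of its bases to that of Magea8 and at 56% to that of Magea2. In the other 11 pairs of members, among them every pair with Magea6, at most 3.2% of the window was aligned and identical. With ends free, the alignment paired only 1 to 15 bases of these windows, so their shares do not measure how alike the windows are. CG, the dinucleotide at which mammalian DNA is methylated, occurred 8 times in the Magea2 window and 7 times in that of Magea8, once in that of Magea6, and not in those of Magea1, Magea3 and Magea5. The median over all 32851 RefSeq windows of this length was 6. GGAAG, read on both strands, was found in 5 of 6 member windows and in 64.1% of all windows. CACGTG (6.02% of all windows), GGGCGG (32.7%) and TATAAA (12.4%), read on both strands, were found in none of the 6. No motif overlapped another, and a match is no evidence of binding. Where the true starts lie in these cells was not tested.

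Levels below are normalized log2 intensity, with an offset of 50 raw units (5.64 on this scale) added to every spot before the logarithm. The offset draws low levels together, so a difference that involves TO is smaller here than without it. In bulk RNA, fewer cells that express a gene and less RNA per cell cannot be told apart. Between 54.26% and 65.87% of spots per sample were well above background, no spot was saturated, and the number of arrays limits the precision. Of 15 sympathetic neuroblast markers, 13 were well above background in all 24 samples, and the neurofilament genes Nefl and Nefm in none. Of 7 germ cell markers, the germ cell RNA helicase Ddx4 and the meiotic protein Sycp3 were above background in no sample, while the sperm nuclear protein genes Prm1 and Tnp1 were above it in all 24, and the mean level of the list was 6.63 to 6.75 in TO-d, 6.64 to 6.73 in OT-d, 6.56 to 6.81 in WT-d, 6.65 to 6.72 in TO-p, 6.6 to 6.68 in OT-p and 6.58 to 6.77 in WT-p. The part of these markers in the Magea levels was not tested.

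In every one of the 5 probes the TO samples with a value were the lowest. The other groups stood in the same order: OT-p highest, then WT-p, OT-d and WT-d. In proliferation medium the probes were 5.23- to 7.37-fold lower in TO than in OT and 4.29- to 5.93-fold lower than in WT, with a median log2 difference of -2.73 and -2.35. In differentiation medium the probes were 3.79- to 4.96-fold lower in TO than in OT, and 2.67- to 3.48-fold lower in TO than in WT, with medians of -2.13 and -1.57. The medians over all tested genes were 0.02, 0, -0.02 and -0.03 in these 4 comparisons. They share the TO samples, so they are not independent of each other.

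Magea3 is one of the 2 members whose probe lists only its own transcript among the members. It had levels of 7.34, 7.44, 7.51 and 7.61 in TO-p, against 10.16, 10.2, 10.46 and 10.3 in OT-p and 10.02, 9.58, 10.01 and 9.85 in WT-p. It had 7.24, 7.58, 7.79 and 7.58 in TO-d, against 9.52, 9.56, 9.77 and 9.91 in OT-d and 8.99, 9.23, 9.01 and 9.06 in WT-d. No TO sample came within 1 log2 unit of a sample of another line. The fitted log2 difference was -2.79 ± 0.0897 (SE) for TO-p against OT-p, -2.41 ± 0.0858 for TO-p against WT-p, -2.15 ± 0.0958 for TO-d against OT-d and -1.57 ± 0.102 for TO-d against WT-d. In raw units the spot read 95 to 254 in TO-p, over local backgrounds of 20 to 68, against 1049 to 1890 in OT-p and 749 to 1591 in WT-p.

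Magea6, the other member whose probe lists only its own transcript, had 6.44, 6.61 and 6.79 in TO-p, against 9.4, 9.37, 9.32 and 9.27 in OT-p and 9.11, 8.79, 8.95 and 8.76 in WT-p. In differentiation medium it had 6.46, 6.59, 6.74 and 6.58 in TO-d, against 8.74, 8.74 and 8.8 in OT-d and 7.89, 8.24, 8.17 and 8.17 in WT-d. The TO groups did not overlap the others. TO-p replicate 3 and OT-d replicate 1 share an array on which the Magea6 spot read 21078 and 21428 raw units in its 2 dyes and carried an outlier mark, so both values are left out and n is 3 in these 2 groups. The log2 difference was -2.7 ± 0.0953 (SE) for TO-p against OT-p and -1.52 ± 0.1 for TO-d against WT-d.

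Magea8 levels were 7.17, 7.12, 7.47 and 7.39 in TO-p, against 10.1, 10.04, 10.29 and 10.16 in OT-p and 9.96, 9.71, 9.94 and 9.62 in WT-p. Its levels were 6.91, 7.1, 7.39 and 7.18 in TO-d, against 9.51, 9.54, 9.46 and 9.55 in OT-d and 8.79, 9.1, 8.91 and 8.93 in WT-d. The 4 OT-d samples lay within 0.1 of each other, and no 2 of the 4 groups of OT and WT overlapped. TO-p was 7.37-fold lower than OT-p and 5.93-fold lower than WT-p, and TO-d was 4.96-fold lower than OT-d and 3.48-fold lower than WT-d.

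Magea1 averaged 7.12 ± 0.12 (SD, n = 4) in TO-p, against 9.93 ± 0.063 in OT-p and 9.5 ± 0.131 in WT-p. Its samples read 7.07, 6.98, 7.25 and 7.19 in TO-p, 9.96, 9.83, 9.97 and 9.94 in OT-p, and 9.68, 9.4, 9.53 and 9.41 in WT-p, and no groups overlapped. In differentiation medium they read 7.01, 6.92, 7.15 and 7.02 in TO-d, against 9.01, 9.17, 9.17 and 9.44 in OT-d and 8.57, 8.69, 8.74 and 8.85 in WT-d. Here too the 3 lines were apart in every sample.

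Magea5 read 7.26, 7.1, 7.4 and 7.35 in TO-p, against 9.52, 9.58, 9.83 and 9.73 in OT-p and 9.61, 9.14, 9.55 and 9.28 in WT-p. In differentiation medium it read 7.11, 7.25, 7.4 and 7.07 in TO-d, against 9.07, 9.14, 9.27 and 9.21 in OT-d and 8.51, 8.83, 8.53 and 8.55 in WT-d. TO lay apart from both other lines in each medium, while OT-p and WT-p overlapped. Set against OT-p the TO-p level was 5.23-fold lower, and set against WT-d the TO-d level was 2.67-fold lower.

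**Figure D1:**
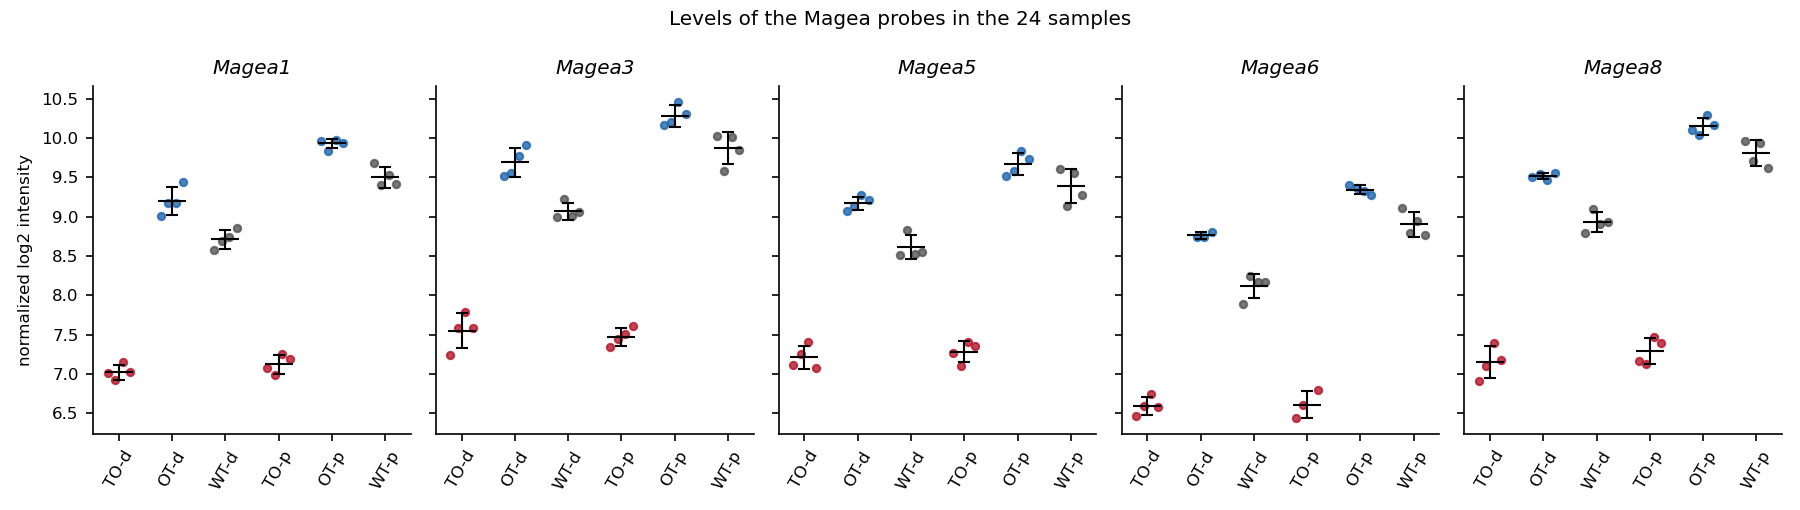
Normalized log2 intensity (y axis) of the 5 Magea probes, 1 panel a probe, in the 6 groups (x axis); points are samples and bars the mean ± SD of 3 or 4 samples, with TO in red, OT in blue and WT in grey. In each panel the TO-d and TO-p samples lie below all others, and OT lies above WT in each medium apart from an overlap of OT-p with WT-p in Magea5.

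The low TO levels were measured on all 3 slides, and beside TO, OT-d and WT-p samples on the same array. No TO sample shared an array with OT-p or WT-d. The median difference over the probes between TO-p and OT-p was -2.89, -2.76 and -2.81 within slides 1, 2 and 3, and between TO-p and WT-p it was -2.41, -2.46 and -2.18. For TO-d against OT-d it was -2.06 and -2.26 within slides 2 and 3, and for TO-d against WT-d -1.71 and -1.67 within slides 1 and 3, with as few as 1 sample a group on a slide. Magea3 had 7.44 to 7.79 in the 4 TO samples hybridised beside another TO sample, 7.51 and 7.61 in the 2 beside an OT-d sample, and 7.24 and 7.34 in the 2 beside a WT-p sample. Magea1 had 6.92 to 7.15 in the 4 TO samples beside another TO sample, 7.19 and 7.25 in the 2 beside OT-d, and 7.01 and 7.07 in the 2 beside WT-p. The scanner software's own processed signals, which carry no added offset, gave larger differences: the median over the probes was -3.65 for TO-p against OT-p, -3.21 for TO-p against WT-p, -3.01 for TO-d against OT-d and -2.43 for TO-d against WT-d.

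The probes also responded to the medium in WT and OT. This measure did not choose them, but it shares the WT and OT samples with the comparisons that did. In WT, all 5 fell in differentiation medium, by 1.68- to 1.82-fold, with a median log2 difference of -0.8 against 0.06 over all tested genes. The adjusted p was 2.77e-08 to 3.56e-07 in limma over the 16241 genes, of which 30.9% were called lower and 35.6% higher. Magea8 averaged 8.93 ± 0.129 in WT-d and 9.81 ± 0.167 in WT-p (SD, n = 4 each), a log2 difference of -0.86 ± 0.0933 (SE, adjusted p = 2.77e-08). Magea5 averaged 8.61 ± 0.151 in WT-d and 9.39 ± 0.22 in WT-p, a difference of -0.75 ± 0.096 (adjusted p = 3.56e-07). In all 5 probes every WT-d sample lay below every WT-p sample. A called gene was one with a Benjamini-Hochberg adjusted p under 0.05.

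In OT all 5 probes fell as well, by 1.45- to 1.61-fold, with a median of -0.62 against 0.04 over all genes and adjusted p of 2.48e-08 to 8.3e-06 in limma. Of all genes 31% were called lower and 36.6% higher in this comparison. Magea1 averaged 9.2 ± 0.176 in OT-d and 9.93 ± 0.063 in OT-p (SD, n = 4 each), and Magea3 averaged 9.69 ± 0.184 in OT-d and 10.28 ± 0.135 in OT-p. No OT-d sample overlapped the OT-p samples in any of the 5. Within slides the median was -0.76 and -0.55 for OT-d against OT-p on slides 2 and 3, and -0.88 and -0.55 for WT-d against WT-p on slides 1 and 3.

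The 2 medium responses were not shown to differ. The response of OT less that of WT was 0.09 to 0.22 on the log2 scale, with a median of 0.19 and 0 of 5 probes called (adjusted p 0.172 to 0.557 in limma), against 20.7% of all genes called higher and 14.2% called lower. The 95% interval was -0.13 to 0.31 for Magea1 and -0.03 to 0.48 for Magea5. Without WT-d replicate 2, Magea3 (0.33, adjusted p = 0.0408), Magea5 (0.37, adjusted p = 0.027) and Magea8 (0.35, adjusted p = 0.0244) were called, and without WT-p replicate 2 Magea5 was called (0.31, adjusted p = 0.05).

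In TO, the levels in the 2 media lay on top of each other. The log2 difference of TO-d against TO-p was -0.09 for Magea1, 0.04 for Magea3, -0.07 for Magea5, -0.02 for Magea6 and -0.09 for Magea8, with 95% intervals that reached down to -0.28 and up to 0.22, and the groups overlapped in each probe. These values are a description, near the lower end of the scale where the offset draws levels together. The scanner software's processed signals gave a median of 0.03, and taking out marked spots after background correction, which distorted TO-p replicate 4, gave -0.47 with that sample and -0.05 without it.

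OT and WT also differed from each other. This difference did not choose the members either, but it too rests on samples of the comparisons that did. In proliferation medium all 5 probes were higher in OT than in WT, by 1.22- to 1.31-fold (median log2 difference 0.38, against -0.02 over all genes). The adjusted p was 0.00015 to 0.00626 in limma, where 20.1% of all genes were called higher and 24.2% lower. Magea1 averaged 9.93 ± 0.063 in OT-p and 9.5 ± 0.131 in WT-p (SD, n = 4 each), a log2 difference of 0.38 ± 0.0711 (SE, adjusted p = 0.00015). Magea5 was the least firm: its groups overlapped, its difference was 0.29 ± 0.0813 (SE, adjusted p = 0.00626), and it was not called without WT-p replicate 2 (0.19, adjusted p = 0.0848) or with loess normalization alone (0.23, adjusted p = 0.0747). Within slides 1, 2 and 3 the median difference over the probes was 0.32, 0.3 and 0.51.

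In differentiation medium the excess of OT over WT was 1.38- to 1.49-fold (median 0.51, against -0.01 over all genes), and all 5 probes were called higher with adjusted p of 1.46e-05 to 6.6e-05 in limma. Of all genes 26.6% were called higher and 25.1% lower. Magea3 averaged 9.69 ± 0.184 in OT-d and 9.07 ± 0.109 in WT-d (SD, n = 4 each), a log2 difference of 0.57 ± 0.0902 (SE, adjusted p = 1.46e-05). No OT-d sample overlapped the WT-d samples in any of the 5. Only slide 3 held both groups, and the median difference there was 0.53. The calls in both media, though hardly the sizes, depended on taking out spots with an outlier mark before background correction, a step chosen after the data were seen. With these spots taken out afterwards, 1 channel, TO-p replicate 4, was distorted and 0 of the 5 probes were called in either medium in limma (medians of 0.34 and 0.48, lowest adjusted p 0.244 and 0.0815). With that sample left out as well, and also with the scanner software's processed signals or the authors' series table, all 5 were called in both.

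**Figure D2:**
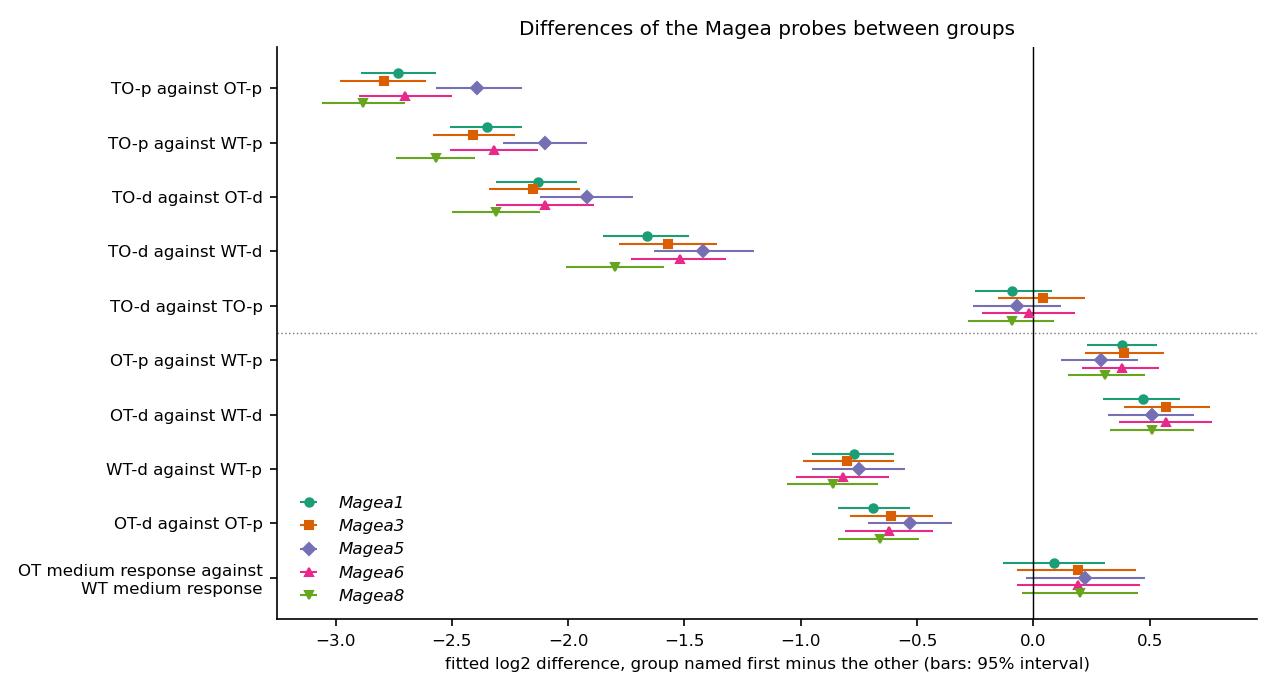
Fitted log2 difference (x axis, the group named first minus the other) of each of the 5 Magea probes in 10 comparisons (y axis), with bars for the 95% interval. Above the dotted line are the comparisons with TO, which chose the members and carry no test; below it the probes were lower in d than in p medium and higher in OT than in WT, and the intervals of the difference between both medium responses all reach 0.

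The order of the 6 groups was shared by the 5 probes, but not every step in it was larger than the spread. OT-p and WT-p overlapped in Magea5 only. WT-p and OT-d, next to each other in the order, overlapped in Magea1, Magea3, Magea5 and Magea6 and were apart in Magea8. OT-d and WT-d, and WT-d and either TO group, overlapped in none. TO-p and TO-d overlapped in all 5, and Magea3 alone had the higher mean in TO-d. Across samples the probes correlated at r of 0.992 to 0.996 (22 or 24 samples), and after each group's mean was taken out at 0.544 to 0.797. These correlations are a description: the probes share transcripts, arrays and normalization.

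Of 18 other MAGE genes listed, 15 were on the array and 8 were tested. Magea4, a relative outside the members, was well above background in 2 of 24 samples, and Mageb1, Mageb4, Mageb5 and Mageb18 in 0 of 24. Mageb16 was above it in 12 and was not tested. The Magea9 probe, now named Magea9-ps in RefSeq, was above it in 22 and was tested, with low levels of 6.41 to 6.76. Those tested were mostly the broadly expressed MAGE genes. For TO-p against OT-p 1 of 8 was higher and 2 were lower (all tested genes: 30% higher, 25.9% lower), and for TO-p against WT-p 0 were higher and 3 lower (18.8% and 15.5%). For TO-d against OT-d 0 were higher and 4 lower (18.6% and 21.3%), and for TO-d against WT-d 1 was higher and 3 lower (22.6% and 23.9%).

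Maged1, which encodes an adaptor of neurotrophin receptor p75 signalling, was the one called lower in TO in all 4 comparisons. It averaged 14.32 ± 0.138 in TO-p, against 15.04 ± 0.031 in OT-p and 15.07 ± 0.0808 in WT-p (SD, n = 4 each), 1.6-fold and 1.67-fold lower (adjusted p = 2.01e-07 and 1.39e-07 in limma). Maged2, which is linked to salt transport in the kidney, averaged 12.6 ± 0.263 in TO-d, against 14.54 ± 0.258 in OT-d, a 3.98-fold difference (adjusted p = 2.77e-13), and 12.78 ± 0.127 in WT-d, where it was not called. Maged2 was highest in OT-d, above every other group. Magel2, an imprinted gene whose protein binds the ligase TRIM27, averaged 6.49 ± 0.133 in TO-p and 6.42 ± 0.205 in OT-p, against 7.27 ± 0.122 in WT-p, 1.71-fold and 1.8-fold lower (adjusted p = 9.54e-08 and 6.9e-09), though its spot was well above background in 1 of 4 TO-p and 1 of 4 OT-p samples.

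In differentiation medium 5 of the 8 other MAGE genes rose and 0 fell in OT (all tested genes: 36.6% higher, 31% lower). In WT 3 rose, a share near that of all genes, and 1 fell (35.6% and 30.9%), and in TO 4 rose and 0 fell (26% and 26.3%). Maged1 rose 1.83-fold in WT-d against WT-p (adjusted p = 6.73e-09 in limma) and 2.1-fold in OT-d against OT-p (adjusted p = 1.91e-11). Maged2 rose 7.28-fold in OT-d against OT-p (adjusted p = 9.66e-18) and 1.87-fold in WT-d against WT-p (adjusted p = 3.01e-08), and its response in OT exceeded that in WT by 1.96 on the log2 scale (adjusted p = 3.7e-10).

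Other germline genes were mostly not above background, and those measured had other patterns. Of 33 listed, 31 were on the array and 8 passed the filter: Asz1, Brdt, Xlr3c (the name RefSeq now gives the probe of Xlr3b), Xlr5a, Rhox5, Rhox9, Dkkl1 and Fthl17a. For TO-p against OT-p 3 rose and 0 fell (all tested genes: 30% higher, 25.9% lower), and for TO-p against WT-p 2 rose and 0 fell (18.8% and 15.5%). For TO-d against OT-d 1 rose and 0 fell (18.6% and 21.3%), and for TO-d against WT-d 4 rose and 3 fell (22.6% and 23.9%). With 8 genes, the counts of higher genes in proliferation medium are near the shares over all genes. Xlr5a, an X-linked lymphocyte-regulated gene of the germline, averaged 8.47 ± 0.0945 in TO-p, against 7.52 ± 0.0911 in OT-p, 1.9-fold higher (SD, n = 4 each, adjusted p = 4.46e-10 in limma), and 8.15 ± 0.0877 in WT-p, 1.24-fold higher (adjusted p = 0.00138). Brdt, a bromodomain protein of the testis, was 1.56-fold higher in TO-p when set against OT-p (adjusted p = 3.12e-06). Rhox5, an X-linked homeobox gene of Sertoli cells and placenta that is known to be silenced by DNA methylation elsewhere, averaged 17.09 ± 0.294 in TO-d, against 17.14 ± 0.209 in OT-d and 16.47 ± 0.426 in WT-d, and 17.38 ± 0.139 in TO-p, against 17.04 ± 0.312 in OT-p and 17.42 ± 0.121 in WT-p. Between TO and another line it was called once, for TO-d against WT-d, where TO-d was 1.6-fold higher (adjusted p = 0.0012).

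Of 30 listed factors that silence or activate germline genes, 29 were tested. For TO-p against OT-p 3 were higher and 13 lower (all tested genes: 30% and 25.9%), and for TO-p against WT-p 1 was higher and 6 lower (18.8% and 15.5%), with a median log2 difference of -0.13 and -0.06 over the list. Uhrf1, which guides the maintenance methyltransferase to replicated DNA, averaged 11.9 ± 0.286 in TO-p, against 12.96 ± 0.0354 in OT-p, 2.12-fold lower (adjusted p = 1.39e-08 in limma), and 12.45 ± 0.29 in WT-p, 1.53-fold lower (adjusted p = 7.82e-05). Hells, a chromatin remodeller needed for DNA methylation, was lower in TO-p by 2.76-fold against OT-p (adjusted p = 1.43e-06) and by 1.88-fold against WT-p (adjusted p = 0.000687), and the histone deacetylase gene Hdac1 1.88-fold and 1.48-fold lower (adjusted p = 2.92e-08 and 4.12e-05). The Hells samples spread from 8.32 to 9.84 in TO-p and overlapped those of WT-p, at 9.55 to 10.2. For TO-d against OT-d 2 were higher and 3 lower (18.6% and 21.3% of all genes), and for TO-d against WT-d 7 were higher and 5 lower (22.6% and 23.9%). Dnmt1, the maintenance methyltransferase itself, had levels of 11.66 ± 0.162 in TO-p, 11.73 ± 0.0464 in OT-p and 11.69 ± 0.138 in WT-p.

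In differentiation medium 20 of the 29 fell and 2 rose in OT (all tested genes: 31% lower, 36.6% higher), 17 fell and 5 rose in WT (30.9% and 35.6%), and 15 fell and 2 rose in TO (26.3% and 26%). The medians over the list were -0.34 in OT, -0.26 in WT and -0.23 in TO, against 0.04, 0.06 and 0 over all genes. Uhrf1 fell 13.3-fold in OT-d against OT-p (adjusted p = 1.68e-18 in limma), 10.4-fold in WT-d against WT-p (adjusted p = 7.08e-17) and 6.41-fold in TO-d against TO-p (adjusted p = 1.81e-15). Dnmt1 fell 3.35-fold in OT-d against OT-p, 3.28-fold in WT-d against WT-p and 2.94-fold in TO-d against TO-p (adjusted p = 5.24e-15, 9.14e-14 and 2.6e-13). In OT and WT the Magea probes were lower in the same medium as these factors. In TO the factors fell while the Magea groups of both media overlapped, near the lower end of the scale where the offset draws levels together. Between OT and WT, 11 of the list were higher and 4 lower in OT-p than in WT-p (20.1% and 24.2% of all genes), and for OT-d against WT-d 9 were higher and 7 lower (26.6% and 25.1%). Their part in the Magea levels was not tested.

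Of 12 listed genes for MAGE partners and substrates, 11 were tested. For TO-p against OT-p 1 was higher and 5 lower (all tested genes: 30% and 25.9%), and for TO-p against WT-p 1 was higher and 1 lower (18.8% and 15.5%). For TO-d against OT-d 2 were higher and 5 lower (18.6% and 21.3%), and for TO-d against WT-d 3 were higher and 5 lower (22.6% and 23.9%). Trim28, the ligase that human MAGEA3 binds, averaged 12.81 ± 0.207 in TO-p, against 13.47 ± 0.127 in OT-p, 1.49-fold lower (SD, n = 4 each, adjusted p = 0.000378 in limma), and 12.98 ± 0.358 in WT-p, where it was not called. Pja1, a ligase that binds Maged1, averaged 13.65 ± 0.0678 in TO-d, against 13.97 ± 0.082 in OT-d and 12.84 ± 0.217 in WT-d, a 1.22-fold lower level against OT-d (adjusted p = 0.0301) and a 1.76-fold higher one against WT-d (adjusted p = 3.96e-06). Trp53, the gene of p53, was lower in TO-d by 1.44-fold against OT-d (adjusted p = 0.00133) and by 1.54-fold against WT-d (adjusted p = 0.000457). In OT against WT, 4 were higher and 1 lower in proliferation medium (20.1% and 24.2% of all genes) and 4 higher and 3 lower in differentiation medium (26.6% and 25.1%).

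**Figure D3:**
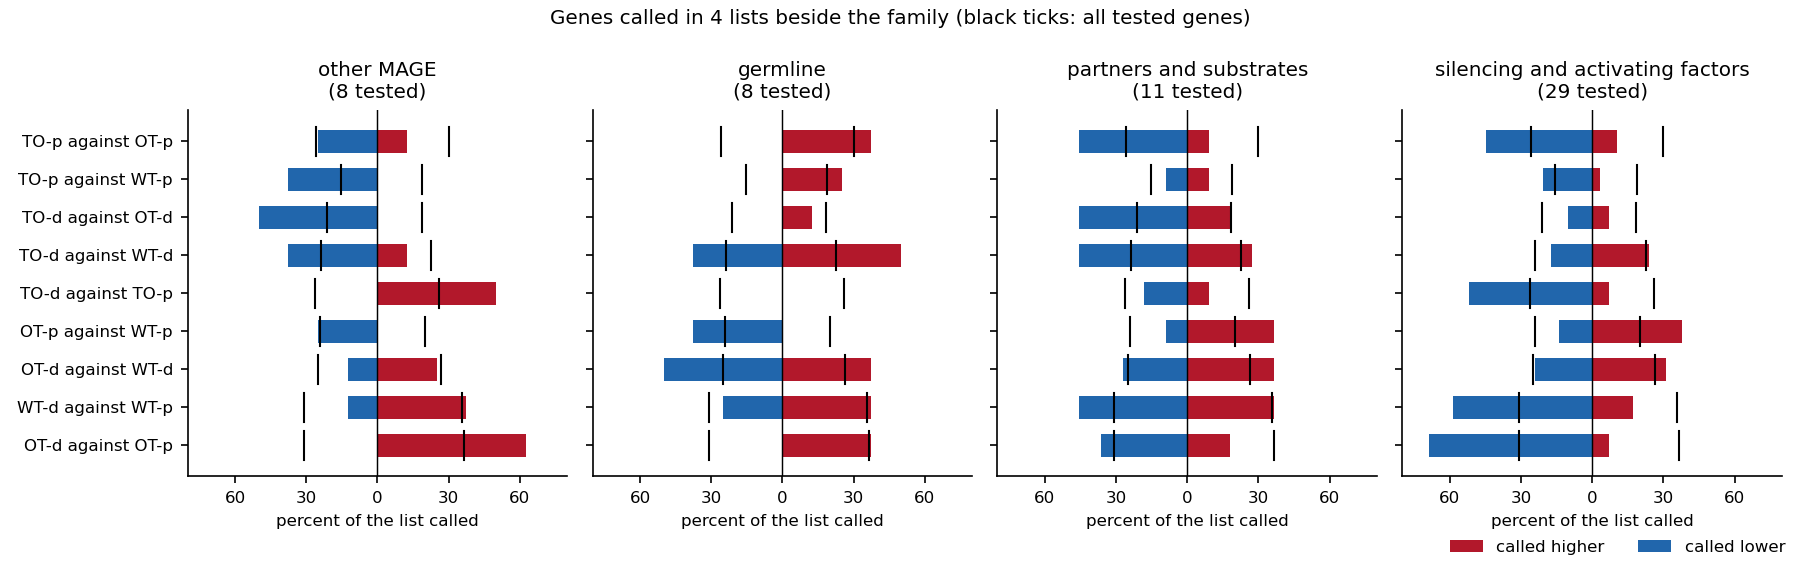
Percent of the tested genes of 4 lists called higher (red, to the right) or lower (blue, to the left) in 9 comparisons (y axis), at an adjusted p under 0.05; black ticks mark the percent over all 16241 genes. In the silencing and activating factors the blue bars pass their ticks in the medium comparisons of all 3 lines, while the germline list has no lower call in the first 3 comparisons with TO.

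Within 1 Mb of the outermost Magea probes the array held 10 other gene names, and 4 were tested: Cldn34b2 at 37 kb, Sat1 at 124 kb, Acot9 at 208 kb and Prdx4 at 241 kb. The claudin-family gene Cldn34b2 was called in none of the 10 comparisons, and its differences between TO and another line lay between -0.12 and 0.02 on the log2 scale (adjusted p 0.342 to 0.876 in limma). Its samples read 6.35 to 6.89 in all groups and its spot was well above background in 3 of 4 TO-d and 3 of 4 OT-p samples, so a loss could hardly have been measured. Sat1, the rate-limiting enzyme of polyamine breakdown, averaged 9.06 ± 0.363 in TO-p, against 7.67 ± 0.00525 in OT-p and 8.78 ± 0.566 in WT-p (SD, n = 4 each), 2.78-fold higher than OT-p (adjusted p = 2.61e-07). It averaged 8.69 ± 0.148 in TO-d, against 8.28 ± 0.169 in OT-d and 10.28 ± 0.147 in WT-d, 3.03-fold lower than WT-d (adjusted p = 1.43e-06). Acot9, a mitochondrial thioesterase, was lower in TO-p by 1.23-fold against OT-p (adjusted p = 0.00572) and higher in TO-d by 1.49-fold against WT-d (adjusted p = 7.92e-05). Prdx4, a peroxidase of the endoplasmic reticulum, was lower in 3 of the 4 comparisons of TO with another line, by 1.16- to 1.47-fold.

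Across the whole X chromosome 513 genes were tested, the 5 members among them. For TO-p against OT-p 88 were called higher and 234 (45.6%) lower, where 25.9% of all genes were lower, and for TO-p against WT-p 40 were higher and 189 (36.8%) lower, against 15.5% of all genes. For TO-d against OT-d 41 were higher and 218 (42.5%) lower, against 21.3% of all genes. For TO-d against WT-d 89 were higher and 137 (26.7%) lower, near the 23.9% of all genes. The median log2 difference of the X-linked genes was -0.16, -0.12, -0.2 and -0.06 in these 4 comparisons. Some comparisons without TO also departed from all genes. For OT-d against WT-d 227 were higher and 69 (13.5%) lower, against 26.6% and 25.1% of all genes, with an X-linked median of 0.16. For OT-p against WT-p 145 were higher and 95 (18.5%) lower (20.1% and 24.2%). For WT-d against WT-p 147 were higher and 211 (41.1%) lower (35.6% and 30.9%). For OT-d against OT-p 176 were higher and 179 (34.9%) lower (36.6% and 31%). Whether these shares bear on the members was not tested.

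The gene outside the family whose levels ran most like the mean Magea profile over the 24 samples was Igf2bp3, on chromosome 6, at r = 0.989. It encodes an oncofetal mRNA-binding protein. Igf2bp3 averaged 6.46 ± 0.144 in TO-p, against 9.01 ± 0.113 in OT-p and 9.08 ± 0.154 in WT-p, and 6.33 ± 0.216 in TO-d, against 8.58 ± 0.0854 in OT-d and 8.18 ± 0.0783 in WT-d (SD, n = 4 each). It shared the low TO level and, in OT and WT, the lower level in d than in p medium. Its OT-p and WT-p means lay closer together than the SD of either group, so no order of these groups can be read. In TO its spot was well above background in 2 of 4 TO-p and 3 of 4 TO-d samples. The next were Ankrd13a (r = 0.971), a ubiquitin-binding protein of endocytosis, Tmem80 (0.962), Kctd10 (0.961), an adaptor of cullin ligases, the X-linked transcription factor gene Zfx (0.958) and Lrrc4c (0.957), a netrin-G ligand that was well above background in 0 of the 8 TO samples. Tmem80 was well above background in 2 of 4 TO-p and 2 of 4 TO-d samples.

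The remaining 4 of the 10 were BC023829 (r = 0.948), also on chromosome X, Pnrc2 (0.943), a factor of mRNA decay, Parva (0.937), which links integrins to actin, and Tchp (0.935), which binds keratin filaments. Ankrd13a, Kctd10 and Tchp all lie on chromosome 5 in the file's positions. Zfx averaged 9.88 ± 0.207 in TO-p, against 10.81 ± 0.0546 in OT-p and 10.61 ± 0.0943 in WT-p, so a high likeness can go with a small range. Pnrc2 had the widest range of the 10, 4.85 log2 units from lowest to highest sample, with 6.55 ± 0.334 in TO-p, against 10.63 ± 0.0726 in OT-p and 10.17 ± 0.195 in WT-p, and was well above background in 2 of 4 TO-p samples. The correlations are a description over samples that share arrays, normalization and the low TO groups. For scale, each member correlated with the mean of the other members at 0.996 to 0.998.

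**Figure D4:**
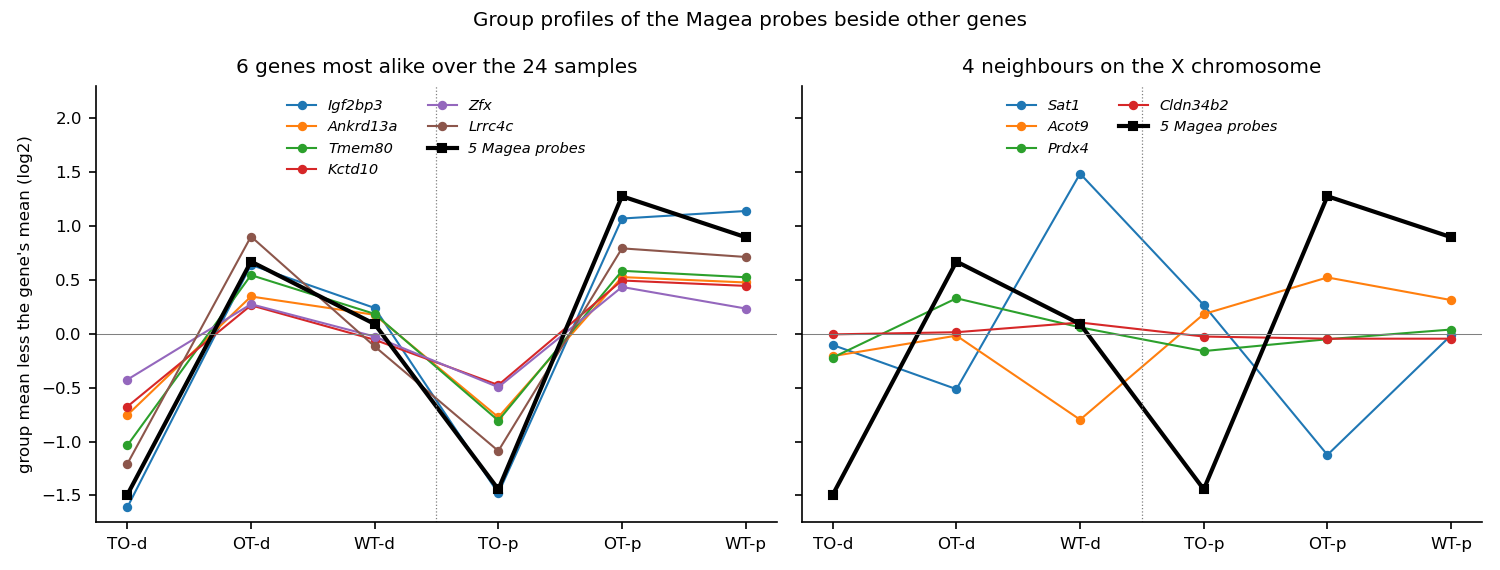
Group mean less the gene's mean over the 6 groups (y axis, log2) in the 6 groups (x axis), for the mean of the 5 Magea probes (black squares), the 6 genes most like it (left, coloured) and the 4 tested X-linked neighbours (right, coloured). The genes on the left dip in TO-d and TO-p as the Magea probes do, with Igf2bp3 nearest in range, and none of the neighbours does so in both media by as much.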

How the data were processed

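Total RNA of 24 samples was labelled with Cy5 or Cy3, per the labels' protocols. The deposited tables give per spot the raw intensity and local background of each dye, written by Agilent's Feature Extraction software (10.5.1.1, per the file headers), with positions on mm8, and other columns there are the deposited quality marks. A deposited series table gives 1 linear intensity a spot, and its columns matched their own dye at r of 0.9988 or more. Each array's table is deposited once for each of its 2 samples, and red was read for the Cy5 sample and green for the Cy3 sample.

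The analysis used R 4.3.3, limma 3.58.1 and statmod 1.5.0. Spots with an outlier mark (0.3211% of values) were set aside before background correction, an order chosen after the data were seen. Mean signals then went through normexp with an offset of 50, loess within arrays with control spots at weight 0, and Aquantile. Spots were averaged to 41174 probes. Genes took their RefSeq symbol and their brightest probe, and 16241 of 27597 passed the filter, which asks for 1 group or more with all 4 samples well above background. A mean per group and a dye term were fitted to the log2 intensity of each channel, with array as a block (intraspot correlation 0.443, 17 residual and 5.31 prior degrees of freedom). limma's lmFit with this block stood in for its separate-channel fit, which takes no missing values. Differences are fitted and can depart from those of printed means. Tests are two-sided, adjusted by Benjamini-Hochberg over all genes, and the fit was tested on simulated data.

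Named are all members, per list and comparison at most 4 called genes of the largest change, the 10 genes most like the mean Magea profile, and tested genes within 1 Mb. The members and lists were chosen with earlier results of these data known. The design text calls the samples biological replicates. Nothing says that they came from separate cultures, so the p-values speak to the spread among these samples alone, which may be technical. Upstream bases were aligned with Biopython 1.88, ends free. The alternatives tried are in the closing section.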

Additional observations from a re-analysis of the deposited data

Results flagged for a closer look

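Among 28 sets of 4 samples, 1 per probe and group, 1 held a sample far from the other 3, and chance alone flags about 1 set in 20. Magea5 read 8.83 in WT-d replicate 2, against 8.51 to 8.55 in the other 3 WT-d samples. This sample is the only WT-d sample on slide 3.

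Magea4, whose probe was not tested because it was dim, was well above background in 2 of 24 samples, both in TO-d: 6.84 in replicate 2 and 6.87 in replicate 3. These 2 samples share 1 array. Magea4 read 6.14 and 6.03 in the other 2 TO-d samples, 5.85 to 6.21 in OT-d and 6.01 to 6.23 in WT-d, and the highest of the 22 samples in which it was dim was 6.25.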

How the results depend on the processing

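Beside the main processing, 10 results were recomputed under 37 settings, 24 of which left out 1 sample each. The 5 calls for WT-d against WT-p and for OT-d against OT-p were made under all 37. With Feature Extraction processed signals the median differences with TO were -3.65 (TO-p against OT-p), -3.21 (TO-p against WT-p), -3.01 (TO-d against OT-d) and -2.43 (TO-d against WT-d). With the authors' series table they were -2.95 for TO-p against OT-p and -2.55 for TO-p against WT-p. The main order, which takes marked spots out before background correction, was chosen after seeing the data, and so was the alternative order. With marked spots taken out after background correction, 0 members were called for OT-p against WT-p and 0 for OT-d against WT-d in limma. The medians were then -2.22 for TO-p against OT-p, -1.87 for TO-p against WT-p, -1.97 for TO-d against OT-d and -0.47 for TO-d against TO-p. With TO-p replicate 4 also left out, added after seeing the data too, the counts were 5 and 5 and the medians -2.66, -2.28, -2.05 and -0.05. With 1 sample left out, 4 to 5 members were called for OT-p against WT-p and 0 to 3 for the difference of medium responses, and the medians ranged from -2.79 to -2.69 for TO-p against OT-p and from -1.63 to -1.46 for TO-d against WT-d. The cause of the other shifts was not tested. With the replicate block, which also holds the dye since numbers 1 and 2 are Cy5, the counts were 5, 5, 5, 5 and 0 and the medians -2.74, -2.36, -2.14, -1.56 and -0.07, so no call changed. Same-numbered samples share a number and a dye. Their deviations correlated at -0.248 to 0.444 (median 0.115), against -0.519 to 0.435 (median -0.0589) between other numbers. Of 24 samples, 13 correlated best with their own number. Whether they share more than the dye was not tested. Signal near background in TO limits how small its level can be measured.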
